A study of Homo sapiens with 12 samples.

Results

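SGI-1027, a quinoline compound that inhibits DNA methyltransferases, was given alone to 786-O cells, and its transcriptional response was read against the DMSO vehicle. The samples were the 3 libraries labelled SGI-1027 and the 3 labelled vehicle, 6 of the 12 libraries of the series, and all 12841 of 17085 genes that passed the filter on low counts were tested. 786-O is an established human clear cell renal carcinoma line that lacks a functional VHL gene, and the labels give its genotype as WT. Cells of the SGI-1027 group received 1.5 µM SGI-1027 for 24 h and control cells received DMSO for the same time. No other agent was given to either group. The 3 everolimus libraries, from cells treated with an inhibitor of the kinase mTOR, were used for a direct comparison between the drugs. The everolimus dose was 5 µM in the sample labels and 10 µM in the treatment protocol. One cell line, one dose and one time were studied, and nothing in the labels tells if the 3 replicates were grown separately, so p-values measure the spread between these libraries, which may be technical.

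DNA methyltransferases add methyl groups to cytosine in CG pairs. DNMT1 copies the pattern to the new strand after replication with the help of UHRF1, while DNMT3A and DNMT3B add new marks. Inhibitors of these enzymes are known for restoring the expression of methylated genes, such as germline genes, and for raising interferon-stimulated genes through the sensing of double-stranded RNA. Interferon-stimulated genes are switched on by a complex that holds STAT2 and IRF9 and binds a short element in their promoters. The lysosome is controlled by TFEB and its relatives, which bind an E-box motif.

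Counts per library ranged from 37046231 to 41516976 over the 6 libraries. Values are CPM, counts scaled to a common library size, with TMM factors that correct for composition. "Rose" and "fell" mean an edgeR Benjamini-Hochberg adjusted p under 0.05 over all tested genes, and DEG (differentially expressed gene) is used for the cut-off of the study, a p under 0.05 before adjustment with a log2 fold change of 1 or more in either direction. SGI-1027 moved a large share of the transcriptome. Of 12841 genes, 4106 rose (32.0%) and 3934 fell (30.6%). The larger changes were mostly increases, since 803 genes were DEGs above DMSO (6.25%) and 138 were DEGs below it (1.07%). These counts depended on genes with few counts, with 522 and 92 when 10 counts were required in every library, 438 and 85 on log2(FPKM + 0.1), and 133 and 41 on log2(FPKM + 1). The median log2 fold change of all tested genes was 0.017. These shares are the background for every list below, since a list with about 3 in 10 of its members called in each direction does not stand apart from the table. Statements below that the libraries of a gene did not overlap have no such background, since the share over all tested genes is not given. Fewer cells of a type and less RNA per cell cannot be told apart in bulk libraries.

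SGI-1027 library 3 and DMSO library 1 stood apart in their groups. The mean chi-square per gene (sampling noise gives 1) between the counts of 2 libraries over genes was 3.051 for SGI-1027 libraries 1 and 2 and 16.53 and 16.25 for the pairs with library 3, and it was 3.619 for DMSO libraries 2 and 3 and 10.39 and 13.25 for the pairs with DMSO library 1. Treatment still carried the first principal component of the 6 libraries, with 80.0% of the variance. Without SGI-1027 library 3, 3944 genes rose and 3879 fell of 12941 tested. Beside some of the lists below stands the value without it, and lists without such a value were not free of shifts. Renal carcinoma and epithelial markers were abundant, with a summed level of 10120 to 10400 CPM in DMSO and 11390 to 11950 CPM in SGI-1027 libraries. LRP2, a proximal tubule receptor, was the 1 marker of these 18 with at most 3 counts in every library. Summed markers of leukocytes were 5.37 to 6.31 CPM in DMSO and 4.31 to 5.23 CPM in SGI-1027 libraries, with 11 of 15 at most 3 counts in each group, PTPRC, CD3E and MS4A1 among them. Endothelial markers summed to 4.53 to 5.93 CPM and 11.4 to 12.5 CPM, with CDH5, CLDN5 and EMCN at most 3 counts, and fibroblast and pericyte markers to 12.4 to 12.9 CPM and 12.5 to 14.4 CPM, with COL1A2 at that floor. Erythroid markers stayed at or under 0.378 CPM. The part of these marker levels in the results was not tested.

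**Figure D1:**
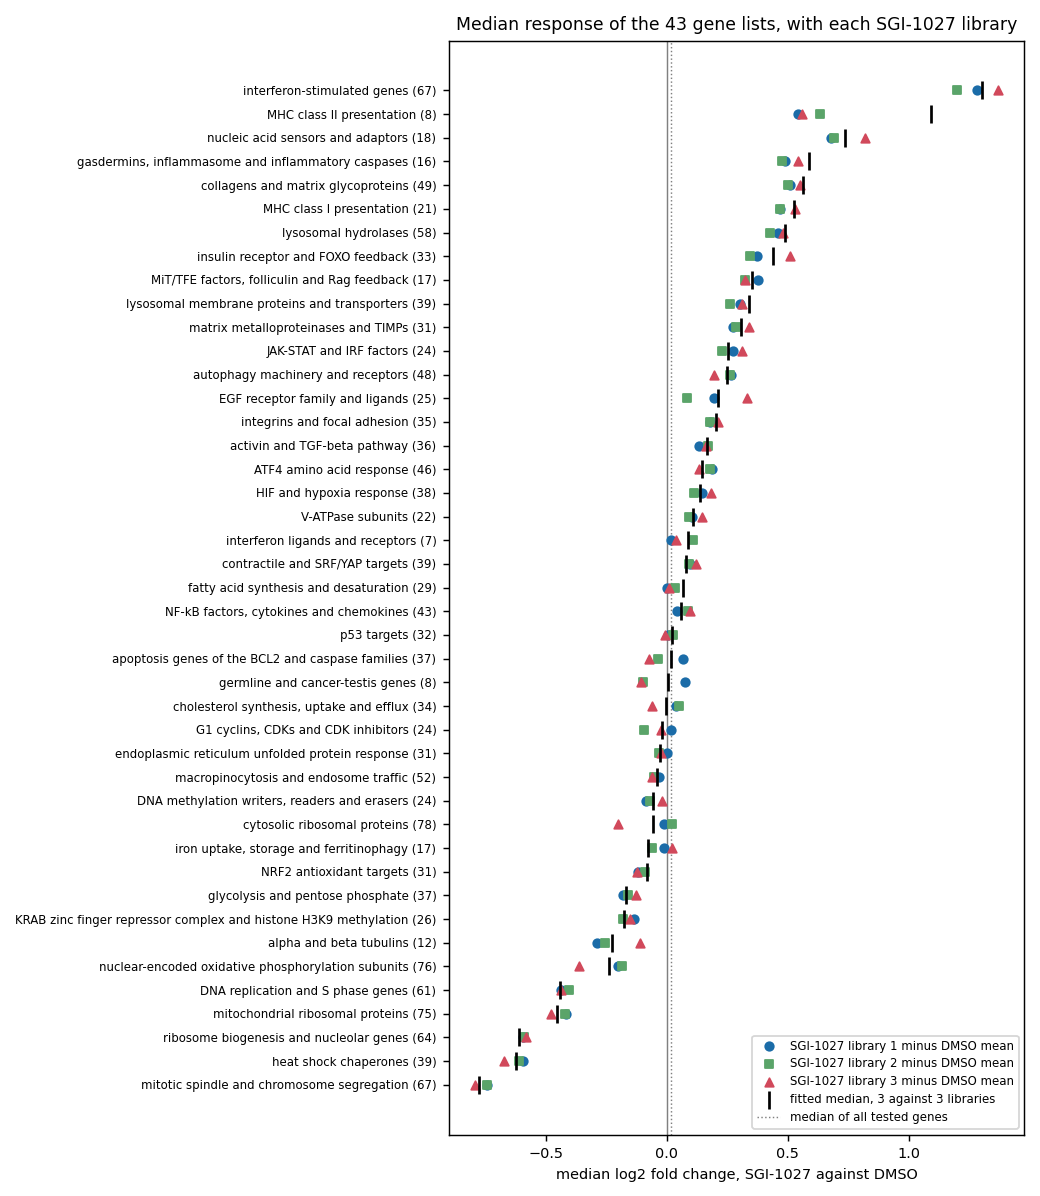
Median log2 fold change (horizontal axis, SGI-1027 against DMSO) of the tested members of 43 gene lists, with the number tested in brackets. Coloured points are each SGI-1027 library against the mean of the DMSO libraries on log2(CPM + 0.5), black bars the fitted median. Interferon-stimulated genes had the highest median, 1.30, and mitotic genes the lowest, -0.78. For MHC class II genes, which have few counts, the points lie well below the bar.

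The methylation machinery was tested first, as the target of the compound. DNMT1, the maintenance methyltransferase, had 252, 246 and 239 CPM in the DMSO libraries and 163, 154 and 166 CPM in the SGI-1027 libraries, a log2 fold change of -0.61 ± 0.038 (SE, edgeR adjusted p = 2.04e-10). All 3 treated libraries were below every control. UHRF1, its partner at hemimethylated DNA, fell with 154, 156 and 147 CPM in DMSO and 97.4, 103 and 94.3 CPM in SGI-1027 (log2 -0.64 ± 0.042, edgeR adjusted p = 3.62e-10). DNMT3A, a de novo methyltransferase, rose from 8.88, 8.355 and 7.72 CPM to 14.2, 14.6 and 12.7 CPM (log2 0.73 ± 0.082, edgeR adjusted p = 4.53e-07). DNMT3B had 60.2, 56.45 and 52.5 CPM in DMSO and 48.97, 45.5 and 57.4 CPM in SGI-1027 libraries, and the groups overlapped. Its log2 fold change of -0.16 ± 0.07 missed the threshold (edgeR adjusted p = 0.0617), and without SGI-1027 library 3 it was -0.26 with an adjusted p of 0.00062. It also passed without DMSO library 3 (edgeR adjusted p = 0.0289), with no filter on low counts (edgeR adjusted p = 0.0223) and with DESeq2 (adjusted p = 0.0396). Over 24 tested writers, readers and erasers of DNA methylation, 7 rose and 9 fell, about the share of the background, and the median log2 fold change was -0.055. TET1, an eraser that oxidises methylcytosine, fell from a mean of 3.14 to 2.15 CPM, and missed the threshold without SGI-1027 library 2 or DMSO library 1 and on log2(FPKM + 1). The UHRF1 relative UHRF2 (log2 0.36) and the methyl-CG binding repressor ZBTB33 (log2 0.48) rose. UHRF1 is also counted in the S phase list below, in which 55 of 61 tested members fell. That list had a median of -0.44 after SGI-1027 and -0.465 after everolimus, each against DMSO. For DNMT1 the direct difference from everolimus, given below, did not pass. Whether the decreases of DNMT1 and UHRF1 are separate from that of S phase genes was not tested. Transcript levels say nothing of the activity or amount of these enzymes.

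The interferon pathway was the list group with the largest increases. Most of its ligand genes were at the detection floor. IFNA1, IFNB1, IFNL1, IFNL2, IFNL3 and IFNK reached at most 2 counts in any of the 6 libraries. The counts held 7 ligand genes, and a ligand was among the tested members. Of 7 tested ligands and receptors none rose by edgeR, and the largest log2 fold change, 0.74, did not pass. IFNGR1, the ligand-binding chain of the interferon-gamma receptor, fell from 42.65 to 35.4 CPM and was also the 1 member with an unadjusted edgeR p under 0.05. The type I receptor chains had log2 fold changes of 0.089 for IFNAR1 (edgeR adjusted p = 0.0925) and 0.059 for IFNAR2 (edgeR adjusted p = 0.295). Without any 1 of the SGI-1027 libraries, 1 member of the list rose.

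Signalling factors below the receptors moved more. Of 24 tested JAK, STAT and IRF factors and their inhibitors, 14 rose and 4 fell, with 6 DEGs above DMSO. STAT2, the activator subunit, had 36.7, 35.9 and 33.9 CPM in DMSO and 149, 134 and 157 CPM in SGI-1027 libraries. The groups were far apart, with a 4.13-fold difference (log2 2.05 ± 0.054, edgeR adjusted p = 5.79e-15). IRF9, which gives the complex its DNA contact, rose 2.398-fold, from 31.6, 26.9 and 26.7 to 64.96, 63.7 and 75.5 CPM. IRF7, an amplifier of the response, had 1.74, 0.972 and 0.943 CPM in DMSO and 4.64, 5.12 and 6.57 CPM in SGI-1027 libraries (log2 2.16 ± 0.2). USP18, which removes ISG15 from proteins and dampens the receptor, rose from 5.82, 6.68 and 6.81 to 20.6, 19.02 and 20.2 CPM (log2 1.63 ± 0.089). SOCS3, a feedback inhibitor of JAK kinases, fell from 25.7 to 14.6 CPM and the phosphatase PTPN2 from 32.9 to 26.6 CPM. IRF3, the factor downstream of the sensors, fell slightly (log2 -0.23).

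Sensors of viral nucleic acid rose broadly: of 18 tested members, 15 rose and 1 fell, with a median log2 fold change of 0.74. That median was 0.69 without SGI-1027 library 3. The cytosolic RNA sensors were highest. DHX58 (LGP2) had 1.48, 1.02 and 1.13 CPM in DMSO and 5.497, 6.77 and 6.85 CPM in SGI-1027 libraries (log2 2.40 ± 0.16, edgeR adjusted p = 3.19e-10). IFIH1 (MDA5), the receptor of long double-stranded RNA, rose from 18.4, 20.5 and 17.9 to 73.4, 67.1 and 81.6 CPM, and DDX58 (RIG-I), the receptor of short blunt RNA ends, from 38.3, 39.1 and 38.85 to 141, 134 and 146 CPM. For all 3 sensors every treated library was above every control. The DNA-sensing arm divided, with STING1, the adaptor of cGAS, up at log2 0.95 and CGAS itself down at log2 -0.38. MAVS, the mitochondrial adaptor, rose by 0.13 on the log2 scale, and the kinase TBK1 had a log2 fold change of -0.034 that did not pass the test. Toll-like receptors 7, 8 and 9 (TLR7, TLR8, TLR9) were under the filter on low counts.

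Of 67 tested interferon-stimulated genes, 65 rose, none fell, and 43 were DEGs above DMSO. The median log2 fold change was 1.30, with members from -0.07 to 3.90. The pair that did not pass was GBP2 (log2 -0.073, edgeR adjusted p = 0.568) and LAP3 (log2 0.077, edgeR adjusted p = 0.148), and 4 listed genes in the table were too low to be tested. MX2, a GTPase that blocks the nuclear import of viruses, led the list with 2.52, 4.06 and 3.404 CPM in DMSO and 46.2, 42.9 and 60.9 CPM in SGI-1027 libraries. That is a 14.9-fold difference (log2 3.90 ± 0.14, edgeR adjusted p = 1.12e-13). OAS2, which makes the second messenger that activates RNase L, rose 10.5-fold from 5.903, 8.33 and 6.57 to 67.0, 67.05 and 85.5 CPM. XAF1, an antagonist of the caspase inhibitor XIAP, had 2, 16 and 3 counts in the DMSO libraries and 90, 86 and 106 counts in the SGI-1027 libraries. Its fitted log2 fold change of 3.74 ± 0.37 rests on those low control counts. SGI-1027 library 3 was the highest treated library for MX2, OAS2, XAF1, EPSTI1 and IFI44L, and without it the list kept 64 rising members with a median of 1.26.

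**Figure D2:**
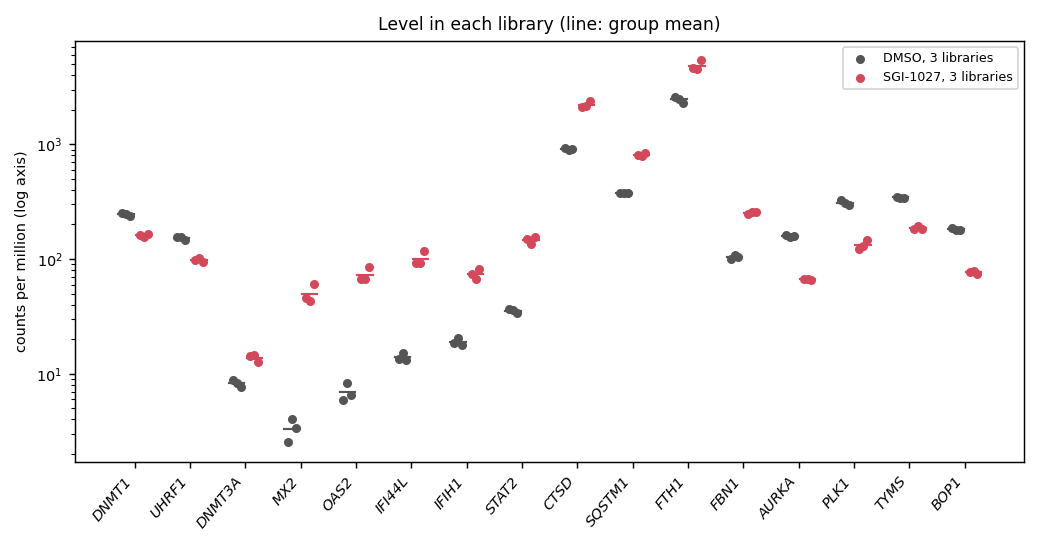
Level of 16 genes in each library (vertical log axis, CPM), with 3 DMSO libraries in grey, 3 SGI-1027 libraries in red and the group mean as a line. The groups do not overlap for any gene shown, and MX2 is below 5 CPM in DMSO and above 40 CPM in SGI-1027 libraries. These genes were picked for display. Over all tested genes 32.0% rose and 30.6% fell, so a lack of overlap alone does not set a gene apart.

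Promoter letters were read because the list is defined by a shared transcription factor complex. RefSeq promoter windows (GRCh38.p14, 250 bases before to 50 bases after the start) matched 10378 of the 12841 tested genes. The motif searched was GAAA, any 2 bases and GAAA, on either strand, the core of the interferon-stimulated response element, and it may overlap with sites of other IRF factors. It was found in 3.02% of the tested genes' windows and in 3.65% of all 27305 windows of the table. Of 51 interferon-stimulated genes with a window, 35 (68.6%) held it. For MHC class I genes it was 9 of 17 (52.9%) and for nucleic acid sensors 5 of 13 (38.5%). Among DEGs above DMSO outside the interferon list, 4.17% of 552 windows held it. A match is a description of letters and not a bound site. The 250 bases before the start are shown for 5 list members, 5′ to 3′ on the gene's strand, with the motif in capitals. These had the largest log2 fold changes among called members that averaged 50 counts or more and had a window. Members on a chromosome left out of the display were not eligible.
XAF1 (chr17:6755796-6756045, plus strand): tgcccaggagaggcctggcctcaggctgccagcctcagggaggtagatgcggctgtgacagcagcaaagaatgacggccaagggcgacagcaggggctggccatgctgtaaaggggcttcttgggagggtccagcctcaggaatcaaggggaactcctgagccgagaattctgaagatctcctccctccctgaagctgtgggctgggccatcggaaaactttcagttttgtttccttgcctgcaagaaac
EPSTI1 (chr13:42992242-42992491, minus strand): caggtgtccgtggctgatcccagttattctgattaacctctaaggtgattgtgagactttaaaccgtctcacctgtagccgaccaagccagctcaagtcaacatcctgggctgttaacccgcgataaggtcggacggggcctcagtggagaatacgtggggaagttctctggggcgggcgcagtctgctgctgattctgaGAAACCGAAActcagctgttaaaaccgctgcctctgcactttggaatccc
IFI44L (chr1:78620198-78620447, plus strand): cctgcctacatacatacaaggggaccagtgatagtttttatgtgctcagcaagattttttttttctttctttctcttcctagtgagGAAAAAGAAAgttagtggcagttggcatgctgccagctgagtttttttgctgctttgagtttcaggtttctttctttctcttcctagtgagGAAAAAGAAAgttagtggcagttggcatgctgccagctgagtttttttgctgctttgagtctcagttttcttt
IFITM1 (chr11:313790-314039, plus strand): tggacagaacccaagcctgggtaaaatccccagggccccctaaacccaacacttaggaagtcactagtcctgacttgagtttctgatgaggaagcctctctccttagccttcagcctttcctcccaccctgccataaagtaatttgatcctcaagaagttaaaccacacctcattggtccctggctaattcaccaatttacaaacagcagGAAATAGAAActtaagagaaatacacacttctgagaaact
OAS1 (chr12:112906712-112906961, plus strand): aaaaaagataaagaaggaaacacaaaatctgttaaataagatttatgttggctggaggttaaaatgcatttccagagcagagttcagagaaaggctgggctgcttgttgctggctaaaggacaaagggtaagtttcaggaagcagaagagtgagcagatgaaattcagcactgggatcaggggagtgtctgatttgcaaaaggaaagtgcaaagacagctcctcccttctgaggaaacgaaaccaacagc
EPSTI1, IFI44L and IFITM1 hold the motif within the window before the start, with its first base 50, 73 and 40 bases before the start in its nearest copy. IFI44L holds it in 2 places. No match was found in the window of XAF1 or OAS1, which says only that these letters are not in these 250 bases.

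EPSTI1, an epithelial stromal interaction gene induced by interferon, had 0.966, 1.46 and 1.02 CPM in DMSO and 7.92, 8.89 and 13.2 CPM in SGI-1027 libraries (log2 3.11 ± 0.19). IFI44L rose from 13.55, 15.1 and 13.2 to 93.1, 92.2 and 118 CPM (log2 2.85 ± 0.083) and IFITM1, a membrane protein that restricts virus entry, from 0.5903, 1.97 and 0.838 to 6.43, 6.12 and 11.5 CPM (log2 2.80 ± 0.29). IFITM1 shares sequence with its paralogs, so its reads may be split. OAS1, an enzyme of the same family as OAS2, rose from 10.8, 12.4 and 11.6 to 74.03, 69.2 and 91.6 CPM.

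Antigen presentation followed at lower size. Of 21 tested MHC class I genes, 17 rose and 1 fell, with a median log2 fold change of 0.52 (0.47 without SGI-1027 library 3). B2M, the light chain of every class I molecule, rose 1.56-fold, from 992, 1015 and 1046 to 1553, 1575 and 1634 CPM, and HLA-F rose 2.12-fold, from 9.45, 8.525 and 8.35 to 18.4, 17.4 and 20.03 CPM. HLA-B (log2 0.64) and HLA-C (log2 0.53) rose, and their reads can be shared between these paralogs. The immunoproteasome subunits PSMB8, PSMB9 and PSMB10 rose by log2 0.22, 0.39 and 0.28. CANX, the chaperone calnexin, fell from 1081 to 904 CPM. Of 8 tested MHC class II genes, 7 rose and none fell, with a median of 1.09, though most were low. CD74, the invariant chain, rose from 3.25 to 6.895 CPM, and CIITA, the class II master regulator, was at 0.215, 0.219 and 0.288 CPM in DMSO and 0.681, 0.379 and 0.487 CPM in SGI-1027 libraries. HLA-DRA and HLA-DQA1, which code for class II heavy chains, were under the filter. On log2(FPKM + 1) the class II median was 0.30.

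NF-kB factors, cytokines and chemokines did not stand apart, with 16 rising and 9 falling of 43 tested. IL6, a pyrogenic cytokine, had 39.3, 36.6 and 41.5 CPM in DMSO and 103, 95.85 and 119 CPM in SGI-1027 libraries (log2 1.44 ± 0.07, edgeR adjusted p = 7.14e-12). The treated libraries were all above the controls. TNFAIP3, the A20 brake on NF-kB, rose from 39.5 to 93.6 CPM, while CSF1, a macrophage growth factor, fell from 368 to 234 CPM and the chemokine CX3CL1 from 19.3 to 13.25 CPM. Gasdermins, inflammasome genes and inflammatory caspases rose in 11 of 16 tested members, with none falling and a median of 0.59. NLRP1, a sensor that nucleates the inflammasome, rose from 4.99, 5.27 and 4.08 to 17.95, 17.1 and 17.85 CPM (log2 1.88 ± 0.096). GSDMD, the pore that executes pyroptosis, rose by log2 0.65 and GSDME, cut by caspase 3, by log2 0.51. CASP4 rose by log2 0.53 and CASP1 by log2 0.85. NLRP3 (log2 0.14, edgeR adjusted p = 0.388) and IL1B (log2 -0.11, edgeR adjusted p = 0.764) did not pass.

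**Figure D3:**
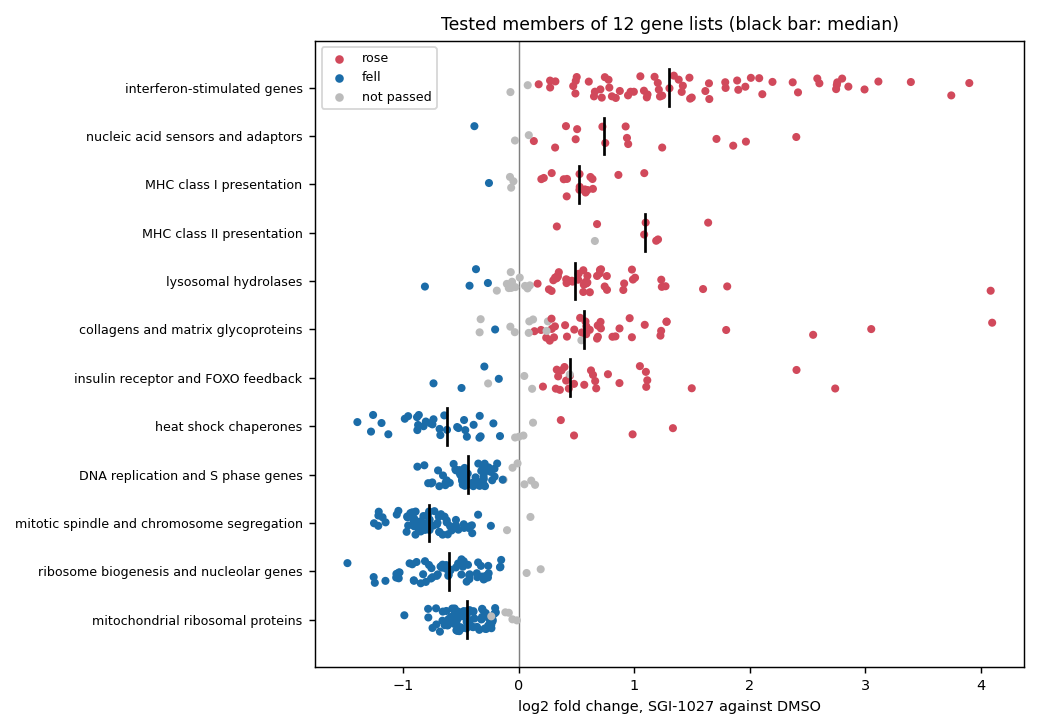
Log2 fold change (horizontal axis, SGI-1027 against DMSO) of each tested member of 12 gene lists, red where the member rose, blue where it fell and grey where it did not pass, with the median as a black bar. Points are spread vertically to be visible. Interferon-stimulated genes lie to the right of zero except GBP2, and every called member of the 4 cell cycle and ribosome lists lies to the left.

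Germline and cancer-testis genes, the genes classically silenced by methylation, were mostly at or near the detection floor in both groups. Of 33 in the table, 18 had at most 3 counts in all 6 libraries and 8 were tested. None of these 8 rose by edgeR, and MAGEA3 and PRAME had an unadjusted p under 0.05. Without DMSO library 1, 1 of them rose. Their median of 0.0052 was -0.13 without SGI-1027 library 3. MAGEA3, a cancer-testis antigen, was already present and fell from 37.1, 38.8 and 38.3 to 29.9, 29.3 and 26.65 CPM (log2 -0.41 ± 0.06, edgeR adjusted p = 1.02e-05), though its reads may be shared with MAGEA6. PRAME, a germline repressor of retinoic acid signalling, had a log2 fold change of 0.13 (edgeR adjusted p = 0.0731). Across the whole table, 3512 genes had at most 3 counts in each DMSO library, and 8 of these had at least 10 counts in each SGI-1027 library. These were ARHGAP4, CEACAM1, HSH2D, MMP10, MYO15B, PSG1, PSG3 and SYT14. PSG1, a pregnancy glycoprotein, had 1, 2 and 0 counts in DMSO libraries and 28, 25 and 42 counts in SGI-1027 libraries, and its reads may be shared with PSG3, which had 2, 1 and 3 counts and 26, 28 and 36 counts. SYT14, a synaptotagmin, had 0, 2 and 2 counts and 29, 20 and 17 counts.

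CG pairs were counted in the same promoter windows. The mean was 25.7 per window over all tested genes, 19.8 over DEGs above DMSO, 19.9 over DEGs below DMSO, 25.3 over the genes that rose and 27.0 over those that fell. Windows of interferon-stimulated genes held 12.1 on average. DEGs in both directions had fewer CG pairs than the average window.

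Most lysosomal genes rose. Of 58 tested hydrolases and their cofactors, 43 rose and 4 fell (median log2 fold change 0.49), and of 39 membrane proteins and transporters 28 rose and 5 fell (median 0.34). Without SGI-1027 library 3 these medians were 0.46 and 0.30. CTSD, an aspartic protease, was among the most abundant, with 935, 894 and 918 CPM in DMSO and 2122, 2144 and 2360 CPM in SGI-1027 libraries (log2 1.27 ± 0.043, edgeR adjusted p = 6.35e-14). Each treated library had over 2 times the level of each control. GAA, the acid glucosidase that breaks down glycogen, rose by log2 1.59 ± 0.1, and CTSO, a cysteine protease, rose from 2.675 to 9.33 CPM. CTSC, which activates serine proteases, was the exception with the largest decrease among hydrolases, from 117, 127 and 129 to 71.2, 74.7 and 66.2 CPM. Among membrane proteins CD68 rose from 39.3 to 90.5 CPM and the endolysosomal cation channel TPCN1 from 73.1 to 164 CPM, while LAPTM5 fell from 16.5 to 11.6 CPM. The proton pump did not follow as a whole, since 9 of 22 V-ATPase subunits rose and 3 fell, and 5 rose without SGI-1027 library 3. TCIRG1, an a subunit, rose by log2 0.67 and ATP6V0B fell by 0.38 on the log2 scale.

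MiT/TFE factors, folliculin partners and Rag GTPases sense nutrients at the lysosome, and 12 of 17 rose and 2 fell (median 0.35). RRAGC rose from 27.4 to 46.8 CPM and FNIP1, a folliculin partner, from 23.5 to 37.45 CPM, whereas TFE3 fell from 128 to 102 CPM. SQSTM1, the autophagy receptor p62, had 379.6, 380 and 374 CPM in DMSO and 808, 796 and 838 CPM in SGI-1027 libraries (log2 1.11 ± 0.034, edgeR adjusted p = 1.56e-14). Every treated library was above every control. Over 48 tested autophagy genes 26 rose and 12 fell, among them BNIP3L, a mitophagy receptor, up from 47.9 to 87.96 CPM, and ATG3, an LC3-conjugating enzyme, down from 61.98 to 43.1 CPM. The E-box CACGTG, which reads the same on both strands, was in 10.1% of all tested windows and in 7.44% of all windows of the table. It was in 8 of 37 hydrolase windows (21.6%), 8 of 34 lysosomal membrane windows (23.5%) and 5 of 15 windows of the MiT/TFE list (33.3%). Ribosome biogenesis genes, which fell, held it in 20 of 53 windows (37.7%).

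Macropinocytosis and endosome traffic genes showed no common direction in transcripts. Of 52 tested members 15 rose and 17 fell, no member was a DEG, and the median of -0.041 became 0.014 with upper-quartile scaling. CHMP2A, an ESCRT-III subunit, rose from 43.6 to 67.7 CPM and PIK3C3, the class III lipid kinase, from 16.7 to 24.6 CPM. SDC1, a heparan sulphate proteoglycan, fell from 311 to 187 CPM and TFRC, the transferrin receptor, from 579, 695 and 696 to 461, 475 and 397 CPM. Iron genes divided too (7 of 17 rose, 5 fell). FTH1, the ferritin heavy chain, had 2587, 2477 and 2310 CPM in DMSO and 4592, 4504 and 5439 CPM in SGI-1027 libraries, the highest in library 3 (log2 0.98 ± 0.058), and FTL rose from 1492 to 2380 CPM. Ferritin genes have many processed copies that can share reads.

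Lipid synthesis did not move one way. Cholesterol genes rose in 9 and fell in 10 of 34, with SREBF2, the master regulator, up from 221 to 309 CPM. The cholesterol median of -0.00092 was 0.053 without SGI-1027 library 3. Fatty acid genes rose in 9 and fell in 9 of 29, and ELOVL6, an elongase, fell from 119 to 76.8 CPM. The fatty acid median of 0.066 was -0.0092 without SGI-1027 library 1.

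Stress programmes differed from one another. ATF4 targets of the amino acid response rose in 21 and fell in 11 of 46. NUPR1, a stress chromatin protein, had 14.95, 15.1 and 15.2 CPM in DMSO and 50.1, 50.7 and 54.02 CPM in SGI-1027 libraries (log2 1.77 ± 0.087), and ASNS, asparagine synthetase, rose from 30.7, 34.85 and 34.8 to 72.9, 70.4 and 62.5 CPM (log2 1.04 ± 0.065, edgeR adjusted p = 2.24e-10). The groups did not overlap for either gene. Genes of the unfolded protein response rose in 10 and fell in 9 of 31, and their median of -0.030 became 0.025 with upper-quartile scaling. HSPA5 (BiP), its main chaperone, fell from 1261 to 846 CPM, while DNAJB9 rose from 5.075 to 8.82 CPM. Heat shock chaperones fell in 31 of 39 tested members and rose in 4, with 5 DEGs below DMSO and a median of -0.62. HSPA1A, the inducible HSP70, had 9.74, 4.66 and 6.703 CPM in DMSO and 2.295, 2.98 and 2.72 CPM in SGI-1027 libraries, and its twin copy HSPA1B can share its reads. HSPE1, the mitochondrial HSP10, fell from 13.85 to 5.715 CPM and HSPA4L from 43.2 to 18.04 CPM. CRYAB, a small heat shock protein, rose from 1.055 to 2.67 CPM. NRF2 targets rose in 11 and fell in 15 of 31, with the drug exporter ABCC3 up from 152 to 354 CPM and GSR, glutathione reductase, down from 55.9 to 36.85 CPM. The NRF2 median of -0.080 was -0.11 without SGI-1027 library 3.

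Proliferation genes fell almost without exception. Of 67 tested genes of the mitotic spindle and chromosome segregation, 65 fell, none rose and 8 were DEGs below DMSO, with a median of -0.78. AURKA, the centrosome kinase, had 163, 157 and 159 CPM in DMSO and 67.25, 67.2 and 66.1 CPM in SGI-1027 libraries (log2 -1.25 ± 0.041, edgeR adjusted p = 3.64e-14). The treated libraries were close to each other and all below the controls. PLK1, which drives mitotic entry, fell from 329, 307 and 294 to 122, 131 and 147 CPM and KIF20A, a cytokinesis kinesin, from 279, 280.2 and 275 to 115, 124 and 120.2 CPM. HMMR and KNTC1 were the members that did not pass, with log2 -0.10 (edgeR adjusted p = 0.0991) and 0.10 (edgeR adjusted p = 0.058). MKI67, a proliferation marker, fell from 870.1 to 509 CPM.

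S phase genes fell in 55 of 61 tested members, none rose and none was a DEG, with a median of -0.44. TYMS, thymidylate synthase, had 348, 343 and 341 CPM in DMSO and 184, 196 and 181 CPM in SGI-1027 libraries (log2 -0.88 ± 0.038), and RRM2, the ribonucleotide reductase subunit, fell from 269.7 to 153 CPM. The members that did not pass were BLM, BRCA1, BRCA2, CCNE1, CCNE2 and POLE2. G1 regulators divided, with 5 rising and 10 falling of 24. The CDK inhibitor CDKN1C rose from 3.84, 4.98 and 4.61 to 15.9, 15.5 and 13.2 CPM (log2 1.73 ± 0.095) and CDKN1A from 25.4 to 39.4 CPM, while CDKN2C, a CDK4/6 inhibitor, fell from 77.9 to 43.5 CPM. CCND1, cyclin D1, was higher in all 3 treated libraries, with 321, 332 and 334 CPM in DMSO and 461, 461 and 475 CPM in SGI-1027 (log2 0.50 ± 0.035). p53 targets rose in 10 and fell in 7 of 32, with BBC3 (PUMA) up from 3.54 to 5.56 CPM and BTG2 down from 3.02 to 1.74 CPM. BTG2 missed the threshold without DMSO library 1. Apoptosis genes rose in 12 and fell in 13 of 37. BMF, a BH3-only protein, had 29.2, 26.8 and 30.9 CPM in DMSO and 91.6, 97.6 and 103 CPM in SGI-1027 libraries (log2 1.75 ± 0.064), and BIRC5 (survivin), which also acts in mitosis, fell from 193 to 98.6 CPM.

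Genes of ribosome production fell too. Of 64 ribosome biogenesis and nucleolar genes, 62 fell and none rose, with 9 DEGs below DMSO and a median of -0.61. BOP1, a pre-rRNA processing factor, had 185, 180.2 and 179 CPM in DMSO and 77.3, 78.4 and 73.6 CPM in SGI-1027 libraries (log2 -1.25 ± 0.042), and LYAR, a nucleolar growth regulator, fell from 27.9, 26.6 and 26.7 to 10.7, 10.6 and 12.6 CPM. NMD3 and PPAN did not pass, with log2 0.067 and 0.19. Mitochondrial ribosomal protein genes fell in 69 of 75 (median -0.45), MRPS12 from 34.1 to 17.2 CPM and MRPL12 from 98.3 to 57.02 CPM. Nuclear-encoded subunits of oxidative phosphorylation fell in 51 of 76 and 1 rose (median -0.24). Without SGI-1027 library 3, 4 rose and the median was -0.19. ATP5MC1, a c subunit of ATP synthase, fell from 72.3 to 36.3 CPM.

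Cytosolic ribosomal protein genes did not fall to the same degree. Of 78, 20 fell and 4 rose, with a median of -0.058. Its counts of calls depended on single libraries. Its median against the DMSO mean was -0.0094 in SGI-1027 library 1, 0.024 in library 2 and -0.202 in library 3. Without library 3, 11 rose and 21 fell (median 0.0018), and without DMSO library 1, 3 rose and 32 fell. RPL13A, a large subunit protein, rose from 857 to 1006 CPM, and RPS26 fell from 206 to 118 CPM. These genes have many pseudogenes that can share reads. Glycolysis and pentose phosphate genes fell in 21 and rose in 9 of 37, HK2, the first enzyme, falling from 72.8 to 41.8 CPM and TXNIP, a glucose-uptake inhibitor, rising from 47.5 to 86.95 CPM. HIF and hypoxia genes, some of which are active without hypoxia in a VHL-null line, rose in 20 and fell in 9 of 38. EDN1, endothelin 1, rose from 5.897 to 22.5 CPM while EDN2, endothelin 2, fell from 26.3, 22.01 and 22.5 to 7.41, 8.07 and 5.925 CPM.

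Extracellular matrix genes rose. Of 49 tested collagens and matrix glycoproteins, 38 rose and 1 fell, with 9 DEGs above DMSO and a median of 0.56. FBN1, the microfibril protein fibrillin 1, had 101, 107 and 105 CPM in DMSO and 246, 258 and 257 CPM in SGI-1027 libraries (log2 1.28 ± 0.039, edgeR adjusted p = 1.56e-14). THBS3, a thrombospondin, rose from 6.63, 5.76 and 4.503 to 19.6, 18.6 and 20.4 CPM and LAMA1, a laminin chain, from 1.33 to 3.15 CPM. COL8A1, a short-chain collagen, fell from 109 to 94.3 CPM. Integrins and focal adhesion genes rose in 18 and fell in 3 of 35 (median 0.20, and 0.18 without SGI-1027 library 3), with ITGB3 up from 392 to 664 CPM and ITGA5, the fibronectin receptor, down from 407 to 358 CPM. Metalloproteinases and their inhibitors rose in 20 and fell in 4 of 31. ADAMTS5, an aggrecanase, rose from 13.9 to 39.2 CPM and ADAMTS13 from 1.03 to 5.58 CPM. MMP1, an interstitial collagenase, fell from 5.098, 5.85 and 6.96 to 4.06, 4.199 and 5.335 CPM, with overlapping groups, and missed the threshold without SGI-1027 library 1 or DMSO library 3.

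Contractile and SRF/YAP targets rose in 17 and fell in 10 of 39, and 16 fell without SGI-1027 library 3. ANKRD1, a YAP target, rose from 4.83, 5.49 and 4.975 to 15.4, 16.7 and 17.95 CPM (log2 1.71 ± 0.09), whereas CNN1, calponin, fell from 3.76 to 1.24 CPM and the immediate early gene EGR1 from 41.5 to 21.3 CPM. Of 12 tubulins 2 rose and 6 fell (median -0.23, and -0.33 without SGI-1027 library 3). TUBA1A rose from 137, 133 and 146 to 412, 404 and 426 CPM (log2 1.58 ± 0.044) and TUBA1B fell from 3857, 3744 and 3912 to 2776, 2830 and 2936 CPM, and these paralogs can share reads. In the activin and TGF-beta list 14 rose and 5 fell of 36. INHBA, the activin A subunit, had 81.6, 87.4 and 93.3 CPM in DMSO and 228, 240.3 and 229.7 CPM in SGI-1027 libraries, while the BMP targets ID1 and ID3 fell from 96.05 to 50.1 CPM and from 46.4 to 24.85 CPM. EGF family genes rose in 14 and fell in 4 of 25, with 4 DEGs above DMSO and a median of 0.21. Without SGI-1027 library 3 there were 2 DEGs above DMSO and the median was 0.14. EREG, epiregulin, fell from 247, 279 and 300 to 113, 123 and 99.1 CPM, and DUSP4, a MAPK phosphatase, rose from 1.11 to 4.12 CPM.

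Insulin receptor and FOXO feedback genes, which rise when AKT signalling is low, rose in 25 and fell in 4 of 33. Their median was 0.44, and 0.37 without SGI-1027 library 3. KLHL24, a FOXO-induced ubiquitin ligase adaptor, had 4.27, 3.69 and 3.85 CPM in DMSO and 26.7, 26.96 and 25.1 CPM in SGI-1027 libraries, a 6.68-fold difference (log2 2.74 ± 0.071, edgeR adjusted p = 5.79e-15). PIK3IP1, an inhibitor of PI3K, rose from 1.48 to 4.17 CPM and PIK3R1, the regulatory subunit, fell from 33.55 to 23.8 CPM. KRAB repressor and H3K9 methylation genes rose in 7 and fell in 15 of 26 (median -0.18). SUV39H1, an H3K9 methyltransferase, fell from 36.9 to 23.2 CPM and TRIM28, the KRAB corepressor, from 452 to 325 CPM, whereas HDAC5, a class IIa deacetylase, rose from 11.4, 10.1 and 11.6 to 30.1, 31.5 and 33.9 CPM.

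Outside the lists, the genes that changed most, taken from those averaging 50 counts or more with groups that did not overlap, were as follows. CD177, a neutrophil surface protein, rose from 0.376, 0.389 and 0.288 to 3.404, 3.25 and 4.001 CPM (log2 3.33 ± 0.2), and SIGLEC15, an immune checkpoint lectin, from 5.125, 5.25 and 4.82 to 34.4, 36.3 and 47.97 CPM. AGT, angiotensinogen, rose by log2 2.90 ± 0.26. Decreases were led by GTPBP6-2 (log2 -2.27 ± 0.84), whose name marks a second copy and whose control libraries spread from 2.36 to 14.3 CPM, so it is uncertain and it missed the threshold without SGI-1027 library 1 or 2 and without DMSO library 1 or 2. KLF17, a zinc finger factor, fell from 2.63 to 0.575 CPM and SYTL2, a Rab27 effector of vesicle transport, from 58.4, 54.8 and 49.5 to 15.4, 14.5 and 13.2 CPM (log2 -1.92 ± 0.075, edgeR adjusted p = 4.81e-13). ADGRF2, CRABP2 (a retinoic acid carrier) and SGK2 (a kinase related to AKT) had log2 fold changes of -1.98, -1.62 and -1.59.

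SGI-1027 was then compared with everolimus directly, in libraries of the same series. The comparison shows where the response differs from that of an mTOR inhibitor. Of 12841 genes 1663 were higher after SGI-1027 (13.0%) and 1221 lower (9.51%). Several lists above also moved the same way after everolimus. Its medians against DMSO were -0.55 for heat shock chaperones, -0.465 for S phase genes and -0.37 for mitochondrial ribosomal proteins. They were 0.37 for FOXO feedback genes, 0.43 for collagens, 0.51 for gasdermins and 0.32 for lysosomal hydrolases. Hydrolases were higher after SGI-1027 in 25 of 58 and lower in 3, and S phase genes higher in 11 of 61 and lower in 9. Of 67 interferon-stimulated genes, 64 were higher than with everolimus and none lower. For MX2 the difference was log2 3.21 ± 0.13 (edgeR adjusted p = 2.86e-12), and for OAS2 it was log2 2.99 ± 0.11. ATF4 targets were higher in 37 of 46 and lower in none, NUPR1 by log2 1.05 ± 0.083. Against DMSO the median of the ATF4 list was 0.14 after SGI-1027 and -0.17 after everolimus. A direct difference holds the changes of both drugs from DMSO. Mitotic genes were lower in 62 of 67, KIF20A by log2 -0.81 ± 0.037 (edgeR adjusted p = 2.49e-11). Ribosome biogenesis genes, by contrast, were higher than everolimus in 13 of 64 and lower in 3. BOP1 differed by log2 -0.082 ± 0.042 (SE, edgeR adjusted p = 0.179) and KLHL24 by log2 -0.062 ± 0.058 (edgeR adjusted p = 0.478). CCND1 was 0.91 ± 0.036 higher on the log2 scale after SGI-1027. DNMT1 differed by log2 0.065 ± 0.038 (edgeR adjusted p = 0.24). A p that misses the threshold does not show that the drugs act alike on these genes. Without everolimus library 1 the count of lower genes was 773. Doses in molar terms were not matched, so sizes are given as measured.

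SGI-1027 library 3 was examined on its own. It lay a median of 0.113 from the mean of libraries 1 and 2 on the log2 scale, against 0.078 and 0.079 for libraries 1 and 2 from the others, and 250 genes deviated by over 0.5 (178 and 174 for libraries 1 and 2). DMSO library 1 deviated by 0.105 with 244 genes. Their deviations resembled each other across the 12841 tested genes (Spearman rho 0.442, Pearson r 0.366), a description over genes, which are not independent replicates. Short genes were lower in library 3. In 5 groups of equal size by length, taken from counts and FPKM for 12591 genes, the median deviation was -0.035 in the shortest group (303 to 2218 bases) and 0.022 in the longest. DMSO library 1 showed no such order, with medians of -0.011 in the shortest group, 0.012 in the next and -0.019 in the longest. Log2 fold changes themselves ran from a median of -0.082 in the shortest group to 0.108 in the longest. The part of length in the list results was not tested. Median lengths were 1105 bases for cytosolic ribosomal proteins, 1236 for oxidative phosphorylation and 1550 for mitochondrial ribosomal proteins, against 4094 for all tested genes. In genes averaging 500 counts or more, library 3 was lowest for CD99-2, a second copy of CD99, at -3.16, then SNRPE at -0.75 and RPS28 at -0.70. It was highest for RTN4RL2 at 0.70 and LUC7L2 at 0.66. These genes were chosen after their values were seen.

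**Figure D4:**
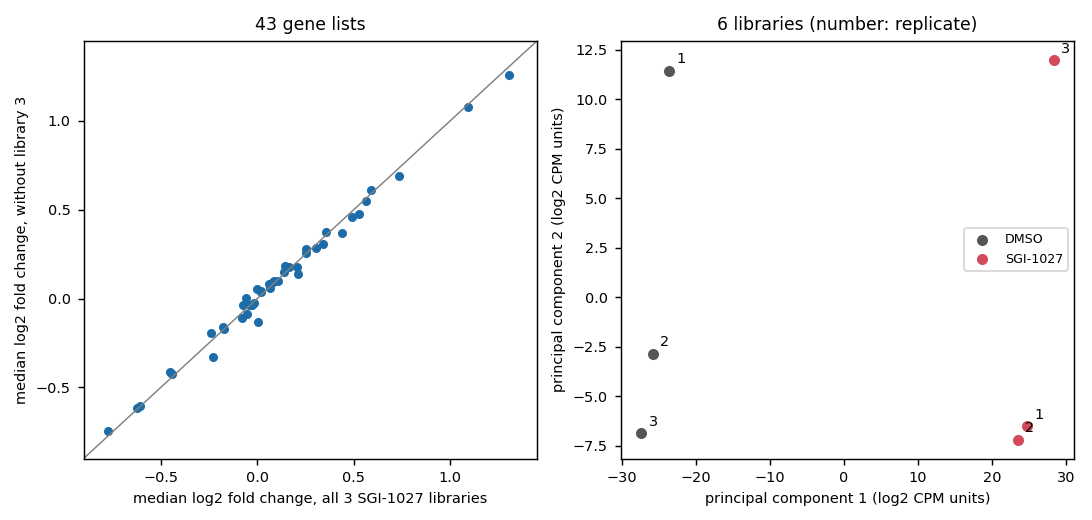
Left, median log2 fold change of the 43 gene lists without SGI-1027 library 3 (vertical axis) against the value with all 3 libraries (horizontal axis), with the line of equality. Right, principal components 1 and 2 of the 6 libraries, numbered by replicate, where component 1 separates the treatments and component 2 sets SGI-1027 library 3 (11.99) and DMSO library 1 (11.4) apart from the other libraries (-7.19 to -2.85).

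Most calls were kept without library 3. Of 4106 rising genes 3726 rose without it, and of 3934 falling genes 3633 fell, and no gene was called in the opposite direction. Leaving out library 1 kept 3723 rising and 3635 falling genes, and leaving out library 2 kept 3771 and 3635, so about as many calls were lost. New calls were most numerous without library 3. Totals were 3944 rising and 3879 falling without library 3, 3848 and 3751 without library 1, and 3918 and 3732 without library 2. For DEGs above DMSO, 714 of 803 remained without library 3, against 733 without library 1 and 752 without library 2. For DEGs below DMSO, 121 of 138 remained, against 124 and 121. Without both library 3 and DMSO library 1, 3995 genes rose and 3992 fell, with 823 and 150 DEGs. The interferon median was then 1.19. Without library 3 alone, no mitotic or S phase gene rose and 1 ribosome biogenesis gene did.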

How the data were processed

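Whole-transcriptome RNA sequencing of 786-O cells gave 12 libraries in 4 groups of 3. The counts were deposited by the authors as whole reads per gene symbol, beside FPKM values that the authors scaled by gene length and depth. The aligner and counter are not given in the sources used here. The submitters' processing notes name the mouse builds GRCm38 and mm10 although the symbols are human, so no coordinates come from the files. The labels give an RNeasy extraction and a SMARTer kit, whereas the study's methods give TRIzol and a stranded TruSeq kit. The strand setting used in counting is not given in the sources used here, so genes that overlap an antisense gene are uncertain. All value columns matched a sample (0 left out).

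Samples were grouped by the labels. Genes were filtered with filterByExpr over the 4 groups, scaled by TMM and fitted in 1 model of 12 libraries with the edgeR (4.0.16, R 4.3.3) quasi-likelihood test, for SGI-1027 minus DMSO and SGI-1027 minus everolimus. Adjusted p-values are Benjamini-Hochberg over 12841 genes, and the SE is the absolute log2 fold change over the square root of F. Depth was 37046231 to 41516976 counts in the SGI-1027 and DMSO libraries, and a count of 3 was the floor for detection. Counting precision is better than the spread between libraries for abundant genes, and 4244 genes were too low to test.

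Members and lists were chosen with earlier results of these data known. The 221 named genes were DNMT1, DNMT3A and DNMT3B, the 8 highest and 8 lowest called genes without overlap between groups, and list members. Up to 3 called members in each direction were taken from each list. The called genes and list members averaged 50 counts or more. Other genes in the text, such as defining members of a list, were not compared across the alternatives. Alternatives were DESeq2 (1.42.0), other scaling, filters and samples, a replicate block, and limma (3.58.1) on log2(FPKM + 1) and log2(FPKM + 0.1). Scripts were tested on simulated data. Promoter windows came from a RefSeq table (GRCh38.p14), matched by symbol. Figures were drawn with matplotlib 3.10.9.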

Additional observations from a re-analysis of the deposited data

Results flagged for a closer look

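Of 221 named genes, USP18 and MMP1 moved in opposite directions after SGI-1027 and after everolimus, with the difference tested directly. USP18, the ISG15 protease, had a log2 fold change of 1.63 after SGI-1027 and -0.33 after everolimus, and the difference between the drugs was 1.96 ± 0.092 (SE, edgeR adjusted p = 2.68e-11). MMP1, the interstitial collagenase, had -0.40 after SGI-1027 and 1.29 after everolimus, a difference of -1.69 ± 0.12 (SE, edgeR adjusted p = 7.41e-09). The decrease of MMP1 after SGI-1027 had overlapping groups and missed the threshold without SGI-1027 library 1 or DMSO library 3. The comparisons with DMSO share their control libraries. The direct difference contrasts only the SGI-1027 and everolimus groups, though the filter, scaling and spread came from all 12 libraries. Over all 12841 tested genes, 87 were called in opposite directions after the drugs.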

How the results depend on the processing

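Counts of genes called against DMSO at the adjusted threshold stayed within 1.5 times of the values given under every alternative run. Upper-quartile scaling raised the median of all genes by 0.055 and gave 4731 rising and 3316 falling genes. DESeq2 gave 3957 and 4077, and a fit of the SGI-1027 and DMSO libraries alone 3651 and 3682. DEG counts depended on how low genes were treated, with 522 above DMSO when 10 counts were required in every library. On log2(FPKM + 1), where low genes are shrunk by construction, 133 were above and 41 below DMSO, and on log2(FPKM + 0.1) 438 and 85. Leaving out each library in turn gave 3769 to 4032 rising and 3611 to 3900 falling genes, at most 885 and 154 DEGs above and below DMSO, and against everolimus 1229 to 1594 higher and 773 to 1174 lower genes, the lowest without everolimus library 1.

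List medians were set against the SDs of the library medians of both groups combined. This spread was widened from that of the SGI-1027 libraries alone after the values were seen. Of 645 values, 78 lay beyond it (122 beyond the narrower one). With upper-quartile scaling they were -0.00088 (DNA methylation writers, readers and erasers), 0.14 (interferon ligands and receptors), 0.58 (MHC class I presentation), 0.11 (NF-kB factors, cytokines and chemokines), 0.54 (lysosomal hydrolases), 0.40 (lysosomal membrane proteins and transporters), 0.16 (V-ATPase subunits), 0.014 (macropinocytosis and endosome traffic), 0.31 (autophagy machinery and receptors), 0.12 (fatty acid synthesis and desaturation), 0.20 (ATF4 amino acid response), 0.025 (endoplasmic reticulum unfolded protein response), -0.57 (heat shock chaperones), -0.025 (NRF2 antioxidant targets), 0.076 (p53 targets), -0.39 (DNA replication and S phase genes), -0.72 (mitotic spindle and chromosome segregation), -0.55 (ribosome biogenesis and nucleolar genes), -0.12 (glycolysis and pentose phosphate), 0.19 (HIF and hypoxia response), 0.62 (collagens and matrix glycoproteins), 0.26 (integrins and focal adhesion), 0.36 (matrix metalloproteinases and TIMPs), 0.14 (contractile and SRF/YAP targets), 0.22 (activin and TGF-beta pathway), -0.021 (iron uptake, storage and ferritinophagy), -0.12 (KRAB zinc finger repressor complex and histone H3K9 methylation). On log2(FPKM + 1) they were 0.15 (JAK-STAT and IRF factors), 1.02 (interferon-stimulated genes), 0.45 (MHC class I presentation), 0.30 (MHC class II presentation), 0.40 (lysosomal hydrolases), 0.24 (lysosomal membrane proteins and transporters), 0.27 (MiT/TFE factors, folliculin and Rag feedback), 0.19 (autophagy machinery and receptors), 0.016 (fatty acid synthesis and desaturation), -0.39 (DNA replication and S phase genes), -0.53 (ribosome biogenesis and nucleolar genes), 0.29 (collagens and matrix glycoproteins), 0.12 (integrins and focal adhesion), 0.22 (matrix metalloproteinases and TIMPs), 0.081 (activin and TGF-beta pathway), 0.35 (gasdermins, inflammasome and inflammatory caspases), and on log2(FPKM + 0.1) 0.78 (MHC class II presentation), 0.52 (gasdermins, inflammasome and inflammatory caspases). With 10 counts in every library the value was 0.90 (MHC class II presentation), with no filter 0.062 (contractile and SRF/YAP targets), and in the fit of 2 groups 0.12 (germline and cancer-testis genes), 0.034 (fatty acid synthesis and desaturation). Leaving out single libraries gave ranges of -0.13 to 0.16 (germline and cancer-testis genes), 1.23 to 1.35 (interferon-stimulated genes), 0.47 to 0.55 (MHC class I presentation), 0.98 to 1.11 (MHC class II presentation), 0.46 to 0.51 (lysosomal hydrolases), 0.27 to 0.35 (lysosomal membrane proteins and transporters), -0.0092 to 0.064 (fatty acid synthesis and desaturation), -0.11 to -0.046 (NRF2 antioxidant targets), -0.64 to -0.59 (ribosome biogenesis and nucleolar genes), -0.18 to -0.14 (glycolysis and pentose phosphate), 0.18 to 0.22 (integrins and focal adhesion), 0.044 to 0.11 (contractile and SRF/YAP targets), -0.33 to -0.16 (alpha and beta tubulins), -0.079 to -0.014 (iron uptake, storage and ferritinophagy), -0.20 to -0.16 (KRAB zinc finger repressor complex and histone H3K9 methylation). Without SGI-1027 library 3 and DMSO library 1 together, an alternative chosen after seeing the data, the values were -0.16 (germline and cancer-testis genes), 1.19 (interferon-stimulated genes), 0.47 (MHC class I presentation), -0.11 (NRF2 antioxidant targets), 0.16 (integrins and focal adhesion). Medians near zero changed sign under at least 1 alternative, among them those of the macropinocytosis, unfolded protein response, fatty acid, germline, cholesterol, p53, G1, apoptosis and cytosolic ribosomal lists. The cause was not tested.

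The replicate numbers did not pair the samples. Same-numbered SGI-1027 and DMSO libraries had deviations correlated at -0.212, 0.060 and -0.295. With a replicate block 4008 genes rose and 3871 fell, and all 221 named genes kept their call. None of these 221 genes changed direction under any alternative run in which it was tested.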

Other observations

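Genes at or under 3 counts in each DMSO library and at 10 or more in each SGI-1027 library also included ARHGAP4, with 3, 1 and 2 counts in DMSO and 27, 18 and 13 counts in SGI-1027 libraries. CEACAM1, a cell adhesion molecule, had 3, 3 and 2 counts and 19, 21 and 29 counts. HSH2D, an adaptor protein, had 0, 1 and 1 counts and 13, 39 and 16 counts. MMP10, stromelysin 2, had 2, 0 and 2 counts and 13, 12 and 14 counts, and MYO15B had 0, 0 and 2 counts and 12, 19 and 21 counts. All 8 such genes stayed low, with no library above 42 counts.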
